A study of Homo sapiens with 15 samples.

Results

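Integrins are paired cell-surface receptors, each made of an alpha and a beta chain, that bind extracellular matrix. This account follows 7 integrin chains (ITGA2, ITGA3, ITGA5, ITGA6, ITGB1, ITGB4 and ITGB6) and 2 chains of laminin-332 (LAMA3 and LAMB3), 9 of the 60721 genes in the table, taken as a fixed list of adhesion genes. All 9 passed the filter on low counts and were among the 17457 genes tested. The libraries are mRNA sequencing of MCF-10A, an immortalised line of human breast epithelium that forms no tumours and that the labels give as MCF10. The 15 libraries fall into 5 genotypes of 3 replicates that the labels call biological: parental cells, cells with an empty vector, and NF1 mutants made with guide RNA 1, with guide RNA 2, or with guide RNAs 1 and 2. The NF1 product, neurofibromin, switches RAS off by speeding its GTP hydrolysis. No genotype received a drug treatment, and all shared a medium with horse serum, EGF, hydrocortisone, cholera toxin and insulin. The labels do not say whether an edited line is 1 clone or a pool, nor what separates the replicates, so the p-values measure the spread between these libraries, which may be technical.

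In stratified and glandular epithelia, laminin-332, which holds the products of LAMA3 and LAMB3, is laid down in the basement membrane. The α6β4 integrin binds it and anchors keratin filaments in hemidesmosomes, where collagen XVII also sits, and α3β1 binds it at focal contacts. The α2β1 integrin binds mainly collagens, α5β1 binds fibronectin, and αvβ6 binds fibronectin and the latent form of TGF-β. ITGB1 is the common partner of the α2, α3 and α5 chains, while ITGB4 pairs with ITGA6 only.

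The library totals ranged from 46129559 to 78976917 counts, so 3 counts correspond to 0.038 to 0.065 CPM (counts-per-million, a count relative to its library total), the unit of all levels here. NF1 was 115 to 159 CPM in the 6 unedited libraries and 26.04 to 51.3 CPM in the 9 edited libraries, without overlap. Relative to empty-vector cells, the log2 fold change was -1.40 with guide 1, -2.09 with guide 2 and -2.16 with both guides (edgeR adjusted p = 4.71e-06, 1.22e-07 and 8.22e-08). Some libraries stand apart from their replicates, among them parental replicate 2, empty-vector replicate 3 and guide 2 replicate 2. In guide 2 replicate 2, 23.8% of all tested genes lay over 1 log2 unit from the mean of the other guide 2 libraries. NF1 was 31.4 CPM in that library and 26.96 and 29.8 CPM in its replicates. Among the 9 adhesion genes, 5 lay that far away, 4 above (ITGB6, LAMA3, ITGA6 and ITGA2) and 1 below (ITGA5). Counts of passing genes among the 9 are therefore also given without that library. In comparisons without guide 2 cells, this leaves the compared libraries unchanged and acts mainly through the spread estimate that all genotypes share. A pass gained there rests on that estimate and on no new values of the compared cells.

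The stretches before the annotated transcript starts of LAMA3, ITGB6, ITGA6 and LAMB3 were read from RefSeq (GRCh38.p14) and are shown because the first 3 of these genes rose and fell together across libraries. RefSeq windows matched 7 of the 9 genes, with 11 windows of 250 bases in all; ITGA3 and ITGB4 were not matched. Capitals mark matches on either strand to TGANTCA, the core bound by AP-1 factors, and to CACCTG, an E-box that ZEB and SNAI repressors recognise. Each sequence runs 5′ to 3′ on the strand of its gene, and bases inside GENCODE exons were left out except in the short LAMA3 stretches.
LAMA3, chr18:23872884-23872913, plus strand: ctggcacaggcTGACTCAtgtgtgaagttt
LAMA3, chr18:23872940-23872969, plus strand: ccttcctCACCTGAGTCAggcaggcccggg
ITGB6, chr2:160200314-160200522, minus strand: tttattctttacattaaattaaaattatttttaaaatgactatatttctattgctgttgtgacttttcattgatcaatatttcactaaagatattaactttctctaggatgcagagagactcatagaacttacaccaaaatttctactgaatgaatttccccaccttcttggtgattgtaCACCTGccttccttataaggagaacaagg
ITGA6, chr2:172427086-172427335, plus strand: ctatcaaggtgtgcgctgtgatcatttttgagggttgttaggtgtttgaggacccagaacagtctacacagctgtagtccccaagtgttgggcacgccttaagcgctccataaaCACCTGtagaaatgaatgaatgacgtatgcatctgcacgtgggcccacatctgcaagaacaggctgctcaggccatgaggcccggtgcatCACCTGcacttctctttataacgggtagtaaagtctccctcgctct
LAMB3, chr1:209651395-209651624, minus strand: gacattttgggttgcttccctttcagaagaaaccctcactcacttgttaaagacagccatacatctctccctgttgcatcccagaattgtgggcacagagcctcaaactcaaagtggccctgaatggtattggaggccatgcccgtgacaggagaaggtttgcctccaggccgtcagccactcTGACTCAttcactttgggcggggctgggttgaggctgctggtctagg

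The only LAMA3 window read precedes an annotated start at 23873020, inside the gene, which begins at 23689443. In this window the AP-1 core matched at 125 to 119 and at 69 to 63 bases before the start. The E-box matched there at 73 to 68, sharing letters with the second AP-1 match. These LAMA3 matches lie inside GENCODE exons. The LAMB3 window shown also lies inside its gene, before a start at 209651374. The E-box matched at 70 to 65 bases in ITGB6 and at 136 to 131 and 46 to 41 bases in ITGA6. The AP-1 core matched at 67 to 61 bases in the LAMB3 window shown, and the E-box at 218 to 213 in another LAMB3 window. The windows of ITGA2, ITGA5 and ITGB1 held neither motif. Of the 11 windows, 2 held the AP-1 core and 4 the E-box, against 6.57% and 17.5% of all 35116 RefSeq windows of this length. These are matches of letters only.

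LAMA3, which encodes the α3 chain of laminin-332, was far lower with guide 1 than with the empty vector and split the guide 2 libraries. LAMA3 (ENSG00000053747) spans chromosome 18, 23689443 to 23956222, plus strand (GENCODE v29 on GRCh38, as for all genes here). It was 728, 774 and 1925 CPM with the empty vector and 492, 111 and 707 CPM in the parental libraries. It was 42.1, 47.0 and 50.3 CPM with guide 1, 35.2, 727 and 42.7 CPM with guide 2, and 468, 400.4 and 357 CPM with both guides. All guide 1 libraries and guide 2 replicates 1 and 3 lay below every unedited library, while guide 2 replicate 2 stood at the level of the empty-vector libraries. LAMA3 was 24.9-fold lower with guide 1 than with the empty vector (log2 fold change -4.64, SE 1.07, edgeR adjusted p = 0.0253, and 0.057 with the replicate number as a block). For guide 2 the log2 fold change was -2.12, with a 95% interval of -4.20 to -0.05 (edgeR adjusted p = 0.254). With guide 2 replicate 2 left out it was -4.91 (edgeR adjusted p = 0.00078), a 30.1-fold lower level. Cells with both guides held more LAMA3 than guide 1 cells in every library, 8.72-fold on average, which did not pass over all 15 libraries (log2 fold change 3.12, SE 1.00, edgeR adjusted p = 0.256) and passed without guide 2 replicate 2 (adjusted p = 0.00596).

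LAMB3 (ENSG00000196878; chromosome 1, 209614870 to 209652466, minus strand) moved far less. It was 1197, 1187 and 1707 CPM with the empty vector, 606, 468 and 746 CPM in parental cells, 902, 844 and 653 CPM with guide 1, 799.8, 672 and 755 CPM with guide 2, and 868, 850.0 and 904 CPM with both guides. Every empty-vector library was above every other library, and guide 2 replicate 2 lay within the range of the remaining edited libraries. LAMB3 was lower than in the empty vector in parental cells (log2 fold change -1.20, SE 0.19, edgeR adjusted p = 0.006), with guide 1 (-0.78, SE 0.19, adjusted p = 0.0284) and with guide 2 (-0.89, SE 0.19, adjusted p = 0.0202). Both guides gave a log2 fold change of -0.67 (edgeR adjusted p = 0.108, and 0.0369 without guide 2 replicate 2). The edited mean differed from the unedited mean by -0.18 on the log2 scale, with a 95% interval of -0.43 to 0.08 (edgeR adjusted p = 0.505).

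Per kilobase of exon, the median ratio of LAMB3 to LAMA3 was 4.80 in empty-vector, 3.85 in parental and 6.65 in double-guide libraries, against 56.3 with guide 1 and 55.4 with guide 2. In guide 2 replicate 2 this ratio was 2.89. The LAMA3 exon length used, 14678 bases, covers long and short transcripts, so its level per kilobase is understated where the short form is the one made. The plot of levels per exon length shows both chains beside those of the hemidesmosome.

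**Figure D1:**
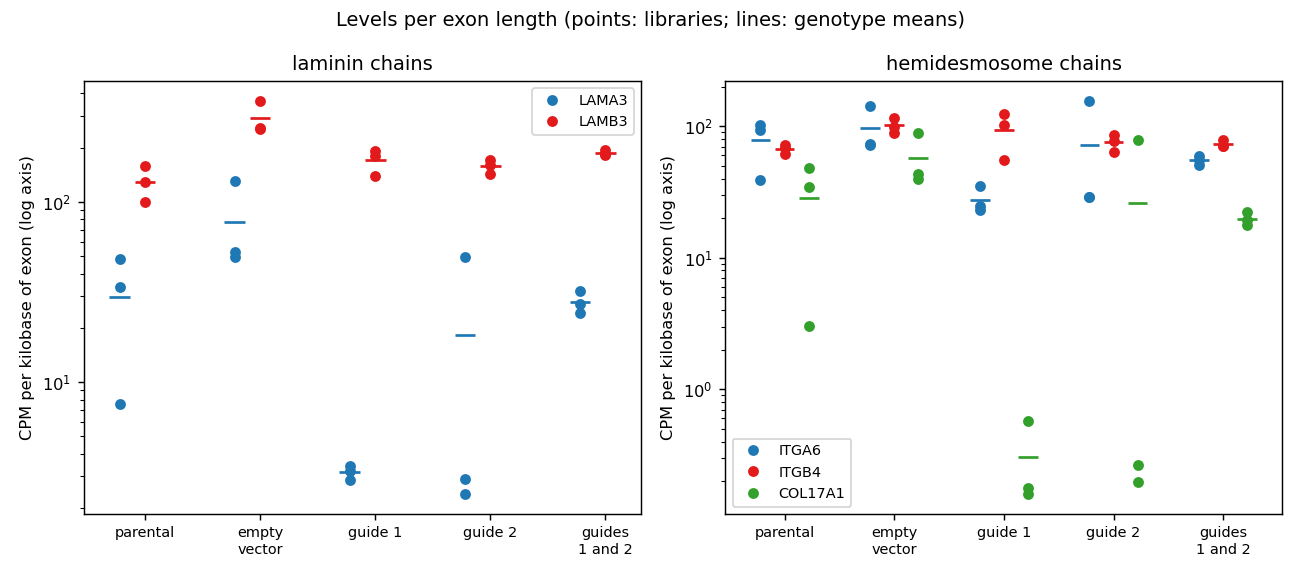
CPM per kilobase of annotated exon (log axis) of 2 laminin chains (left) and 3 hemidesmosome chains (right) in each genotype. Points are libraries and lines are genotype means; with guide 1 LAMA3 sits at 2.87 to 3.42 CPM per kilobase while LAMB3 stays at 139 to 192.

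The α6 chain followed LAMA3, and its β4 partner did not. ITGA6 (ENSG00000091409; chromosome 2, 172427354 to 172506282, plus strand) was 469.6, 477 and 934 CPM with the empty vector and 667, 255 and 606 CPM in parental cells. It was 161, 152 and 229 CPM with guide 1, 190.2, 1019.6 and 189 CPM with guide 2, and 386, 363 and 329.8 CPM with both guides. The guide 1 libraries lay below all unedited libraries, and guide 2 replicate 2 was the highest of all 15. The log2 fold change of guide 1 against the empty vector was -1.81 with a 95% interval of -3.07 to -0.55 (edgeR adjusted p = 0.0878). That of guide 2 was -0.46 (edgeR adjusted p = 0.724), and that of both guides was -0.83 (adjusted p = 0.586). Without guide 2 replicate 2, ITGA6 was 3.54-fold lower with guide 1 (edgeR adjusted p = 0.002) and 3.38-fold lower with guide 2 (adjusted p = 0.00766), and both guides did not pass (adjusted p = 0.138).

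ITGB4 (ENSG00000132470; chromosome 17, 75721328 to 75757818, plus strand) was 605, 665 and 782 CPM with the empty vector and 416, 485 and 457 CPM in parental cells. It was 694, 832 and 373 CPM with guide 1, 433, 581 and 521 CPM with guide 2, and 533, 480.4 and 474 CPM with both guides. The empty-vector libraries overlapped only with guide 1, whose replicate 3 was the lowest library of the 15. No ITGB4 difference passed over the 15 libraries; parental against empty vector gave -0.63 on the log2 scale with a 95% interval of -1.11 to -0.15 (edgeR adjusted p = 0.132). Without guide 1 replicate 3 that comparison passed (edgeR adjusted p = 0.0117), as did guide 1 against parental cells, where ITGB4 was then 0.78 higher on the log2 scale (adjusted p = 0.00677). So did guide 1 against guide 2 (0.59, adjusted p = 0.0402) and both guides against guide 1 (-0.64, adjusted p = 0.0229). Each of these comparisons passed in only 1 of the 15 fits that left out 1 library, the fit without this lowest value. ITGB4 overlaps GALK1 on the opposite strand, which had a mean of 10.7 CPM, and the use of strand in counting is not given in the sources used here. Per kilobase, the median ratio of ITGB4 to ITGA6 was 1.24 with the empty vector, 4.18 with guide 1, 2.20 with guide 2, 1.33 with both guides and 0.73 in parental cells.

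Of the 5 further hemidesmosome genes listed (COL17A1, DST, PLEC, CD151 and COL7A1), 2 were lower with guide 1 than with the empty vector and none was higher. Over all tested genes, 4.57% passed as lower in that comparison. COL17A1, which encodes collagen XVII, was 279, 303 and 630.1 CPM with the empty vector, 1.13, 1.25 and 4.05 CPM with guide 1, and 1.39, 553 and 1.86 CPM with guide 2. Its level was 191-fold lower with guide 1 (log2 fold change -7.58, SE 2.00, edgeR adjusted p = 0.0446). Guide 2 gave -1.16 (edgeR adjusted p = 0.735) and, without its replicate 2, -7.98 (0.00079). It was 156, 136 and 126 CPM with both guides and 337, 21.3 and 244 CPM in parental cells, so parental replicate 2 was low here as for ITGB6. DST, which encodes the dystonin that links keratin filaments to the hemidesmosome, was lower than in the empty vector in all 4 other genotypes, with log2 fold changes of -0.54 in parental cells (edgeR adjusted p = 0.0495), -0.62 with guide 1 (0.0243), -0.68 with guide 2 (0.0214) and -0.93 with both guides (0.0111). DST showed no rise in guide 2 replicate 2 of the size seen for COL17A1, with 345, 488 and 445 CPM in the guide 2 libraries.

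**Figure D2:**
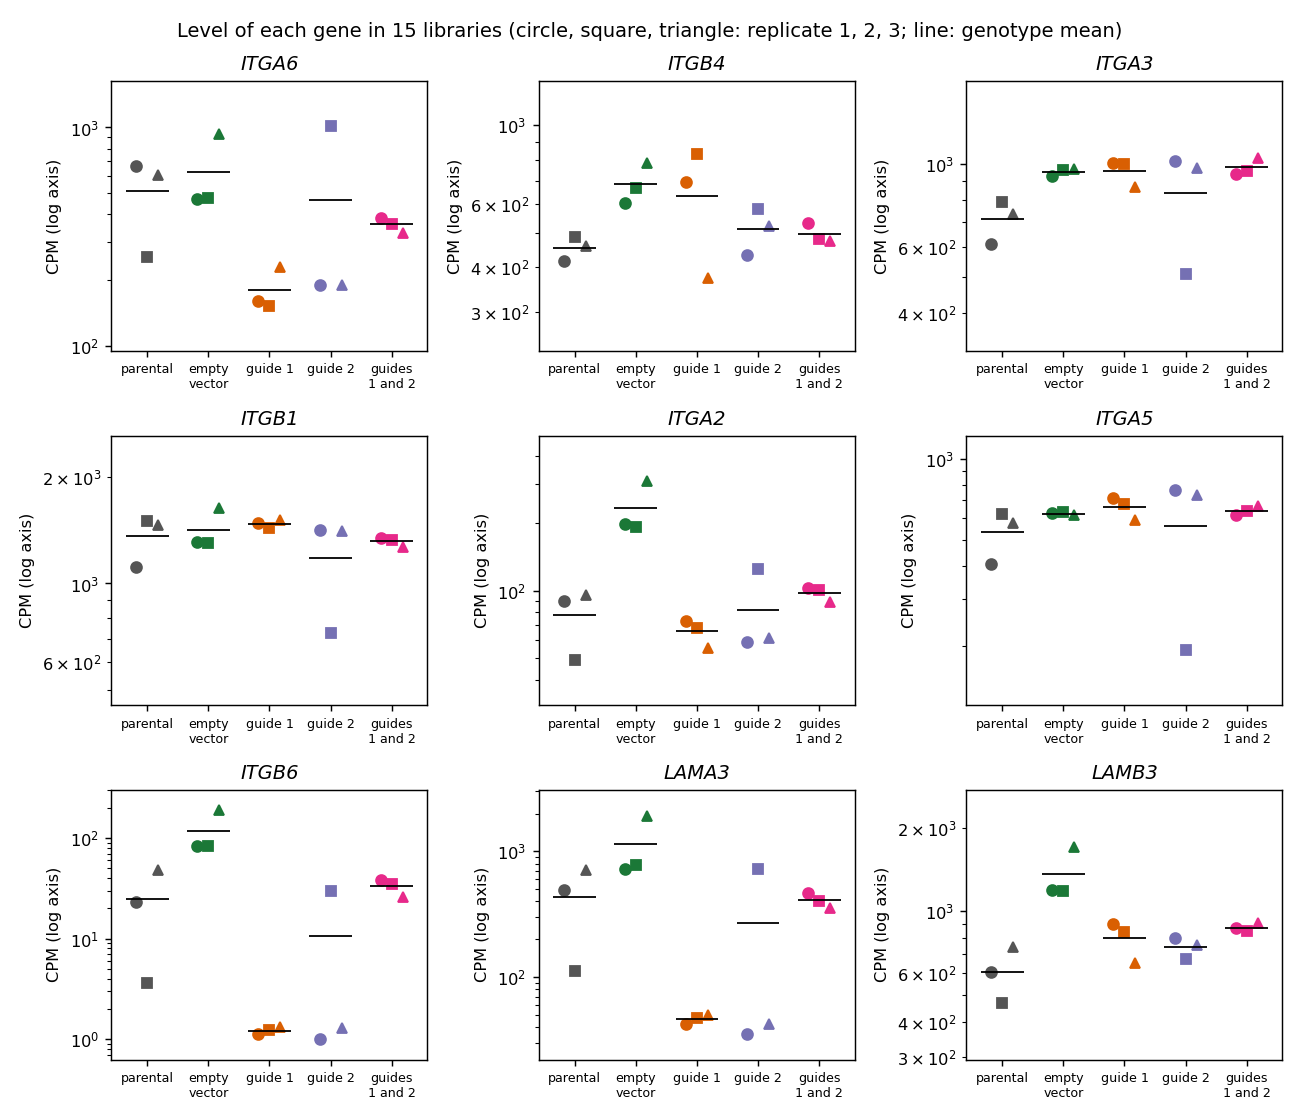
CPM (log axis) of the 9 genes in each of 15 libraries, by genotype; circles, squares and triangles are replicates 1, 2 and 3 and lines are genotype means. ITGA6, ITGB6 and LAMA3 are low with guide 1 and in guide 2 replicates 1 and 3, and guide 2 replicate 2 (square) lies apart for most genes.

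ITGB6 had the widest range of the 9 genes. ITGB6 (ENSG00000115221; chromosome 2, 160099666 to 160200313, minus strand) was 83.3, 82.7 and 189 CPM with the empty vector and 22.9, 3.63 and 48.3 CPM in parental cells. It was 1.11, 1.22 and 1.31 CPM with guide 1, 0.994, 29.9 and 1.27 CPM with guide 2, and 38.2, 34.9 and 25.8 CPM with both guides. The empty-vector libraries were above all others, and guide 1 with guide 2 replicates 1 and 3 held the lowest levels. ITGB6 was 98.3-fold lower with guide 1 than with the empty vector (log2 fold change -6.62, SE 1.32, edgeR adjusted p = 0.0144). Guide 2 gave -3.50 (SE 1.11, edgeR adjusted p = 0.104), and without guide 2 replicate 2 it was -6.73 (adjusted p = 0.000752). Parental cells gave -2.29 (edgeR adjusted p = 0.251). Without that library, which is in neither of these groups, parental cells gave -2.30 (edgeR adjusted p = 0.0226). Both guides gave -1.87 (edgeR adjusted p = 0.466, and 0.0757 without that library). Cells with both guides were 26.8-fold above guide 1 cells (log2 fold change 4.75, SE 1.23, edgeR adjusted p = 0.166, and 0.00391 without that library).

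ITGA2 separated the empty-vector cells from all other genotypes. ITGA2 (ENSG00000164171; chromosome 5, 52989326 to 53094779, plus strand) was 199, 194 and 309 CPM with the empty vector and 89.6, 49.3 and 95.6 CPM in parental cells. It was 73.5, 68.1 and 55.7 CPM with guide 1, 59.2, 125 and 61.8 CPM with guide 2, and 103, 101 and 88.9 CPM with both guides. No library of another genotype reached the lowest empty-vector library. Against the empty vector, ITGA2 was 3.59-fold lower with guide 1 (log2 fold change -1.84, SE 0.31, edgeR adjusted p = 0.0067), 2.90-fold lower with guide 2 (-1.54, SE 0.30, adjusted p = 0.0169) and 3.07-fold lower in parental cells (-1.62, SE 0.31, adjusted p = 0.014). Both guides gave a log2 fold change of -1.29 (edgeR adjusted p = 0.0616, and 0.00589 without guide 2 replicate 2).

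For the α3, α5 and β1 chains and ITGB4, the 44 tests over 15 libraries gave log2 fold changes of -0.63 to 0.51 (edgeR adjusted p from 0.132 to 0.997). ITGA3 (ENSG00000005884; chromosome 17, 50055968 to 50090481, plus strand) was 928, 966 and 968 CPM with the empty vector, 613, 794 and 735 CPM in parental cells, 1009, 998 and 869.6 CPM with guide 1, 1019.7, 508 and 975 CPM with guide 2, and 942, 956 and 1039.8 CPM with both guides. The parental libraries lay below those of the empty vector, guide 1 and both guides. Without guide 2 replicate 2, ITGA3 was lower in parental than in empty-vector cells (log2 fold change -0.46, edgeR adjusted p = 0.00623), and higher than in parental cells with guide 1 (0.45, adjusted p = 0.0108) and with both guides (0.47, adjusted p = 0.0195).

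ITGA5 (ENSG00000161638; chromosome 12, 54395261 to 54419460, minus strand) was 626, 632 and 617 CPM with the empty vector, 405, 620.0 and 575 CPM in parental cells, 713, 679.9 and 592 CPM with guide 1, 763, 193 and 733 CPM with guide 2, and 615, 638 and 664 CPM with both guides. Guide 2 replicate 2 was its lowest library. The log2 fold change of guide 1 against parental cells was 0.33, with a 95% interval of -0.43 to 1.10 (edgeR adjusted p = 0.583, and 0.0765 without guide 2 replicate 2). ITGB1 (ENSG00000150093; chromosome 10, 32900319 to 33005792, minus strand) was 1308, 1304 and 1631 CPM with the empty vector, 1114, 1503 and 1464 CPM in parental cells, 1478, 1434 and 1512 CPM with guide 1, 1412, 727 and 1403 CPM with guide 2, and 1346, 1328 and 1269.7 CPM with both guides. Guide 2 replicate 2 was again the lowest library, at about the same distance below its replicates for ITGB1 (-0.98 on the log2 scale) as for ITGA3 (-0.99), and ITGA5 was lower still (-1.98). Guide 1 against guide 2 gave 0.32 on the log2 scale for ITGB1 (edgeR adjusted p = 0.416, and 0.919 without that library).

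Counted by genotype, 4 of the 9 genes passed in guide 1 against the empty vector (ITGA2, ITGB6, LAMA3 and LAMB3, all lower), where 5.88% of all tested genes passed and 4.57% passed as lower. With guide 2 and in parental cells the same count was 2 (ITGA2 and LAMB3, lower), beside 3.94% and 4.37% of all tested genes, 2.73% and 2.84% as lower. With both guides it was 0 of 9, beside 0.962%; 2444 genes had an unadjusted p under 0.05 in that edgeR test, and DESeq2 called 2 of the 9 beside 4.32% of all genes, and limma voom 5 beside 26.7%. The median log2 fold change of the 9 genes was -0.78 with guide 1, -0.46 with guide 2, -0.67 with both guides and -0.63 in parental cells, beside 0.02, 0.03, -0.001 and 0.01 over all tested genes. These comparisons share the empty-vector libraries. In the fit with the replicate number as a block, 3.25% of all genes passed for guide 1 against the empty vector, and 3 of the 9. Leaving out empty-vector replicate 3, guide 1 replicate 1 or guide 1 replicate 2 left only ITGA2 past the threshold there, with edgeR adjusted p of 0.0991, 0.111 and 0.113 for LAMA3, 0.0508, 0.0721 and 0.0759 for ITGB6, and 0.129, 0.0624 and 0.0854 for LAMB3. Without guide 1 replicate 3, LAMA3 (0.0653) and LAMB3 (0.0727) were lost. For guide 2, ITGA2 was lost without empty-vector replicate 3 (edgeR adjusted p = 0.0785), guide 2 replicate 1 (0.0619) or guide 2 replicate 3 (0.0602), and LAMB3 without the first (0.0871) or the last (0.0565) of these. For parental cells, ITGA2 was lost without parental replicate 2 (edgeR adjusted p = 0.061) or empty-vector replicate 3 (0.0636). By ranges of CPM, 5 of the 9 genes lay wholly below the empty vector with guide 1, 5 with guide 2, 6 with both guides and 6 in parental cells, beside 18.1%, 10.9%, 17.2% and 14.1% of all tested genes.

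Without guide 2 replicate 2 the count was 5 of 9 with guide 1 and with guide 2 (ITGA2, ITGA6, ITGB6, LAMA3 and LAMB3, all lower), 2 with both guides (ITGA2 and LAMB3) and 4 in parental cells (ITGA2, ITGA3, ITGB6 and LAMB3), again all lower, while 11.7%, 9.42%, 4.99% and 8.68% of all genes tested passed as lower. Against parental cells, 4 of the 9 then passed with guide 1 (ITGA3 higher; ITGA6, ITGB6 and LAMA3 lower) and 5 with guide 2 (ITGA3 and ITGA5 higher; ITGA6, ITGB6 and LAMA3 lower), beside 14.5% and 5.96% of all genes. ITGA3 alone passed with both guides against parental cells, beside 2.62%. Over all 15 libraries the counts for guide 1, guide 2 and both guides were 0, beside 0.149%, 0.0516% and 0.195% of all genes, with 3471, 1287 and 1742 genes at an unadjusted p under 0.05 in edgeR. DESeq2 called 2, 0 and 0 of the 9 there, beside 3.76%, 0.785% and 2.1% of all genes. Limma voom called 7, 6 and 3, beside 52.9%, 32.5% and 21.3%. The log2 fold change of guide 1 against parental cells was -4.33 for ITGB6, -3.21 for LAMA3 and -1.48 for ITGA6 over all libraries (edgeR adjusted p = 0.159, 0.175 and 0.213), and all guide 1 libraries were below all parental ones for these 3 genes, as for 12.8% of all tested genes. Between the edited genotypes none of the 9 passed in edgeR: 0.0401% of all genes did for guide 1 against guide 2, 0.275% for both guides against guide 1 and 0.149% for both guides against guide 2, with 2648, 2270 and 1012 genes at an unadjusted p under 0.05. DESeq2 called 0, 2 and 0 of the 9 there, beside 1.17%, 2.19% and 0.859% of all genes. Limma voom called 1, 5 and 4, beside 20.2%, 46.5% and 15.2%. Without guide 2 replicate 2, ITGB6 and LAMA3 passed as higher with both guides than with guide 1, beside 2.31% of all genes, and also than with guide 2 (log2 fold changes 4.85 and 3.39, edgeR adjusted p = 0.0136 and 0.0156), beside 0.98%. By CPM ranges, 4 genes (ITGA2, ITGA6, ITGB6 and LAMA3) lay wholly higher with both guides than with guide 1, beside 15.3% of all tested genes.

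**Figure D3:**
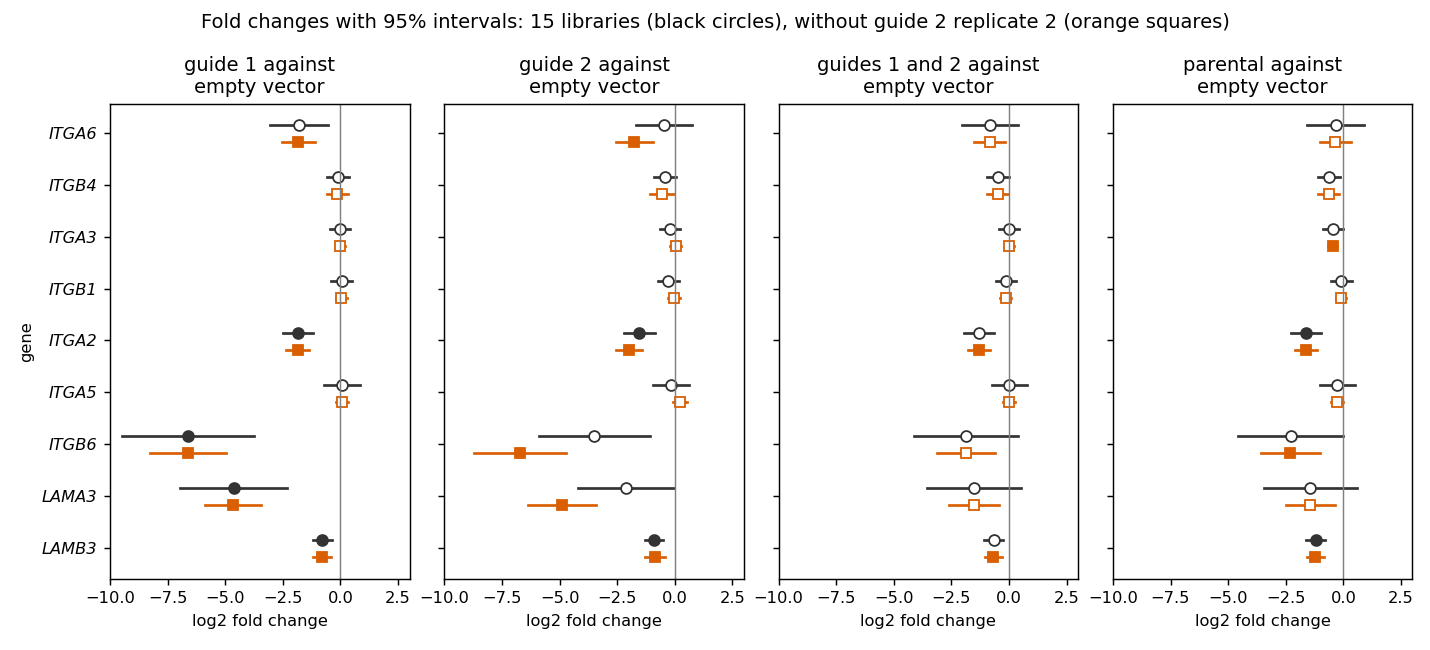
Log2 fold change of the 9 genes against the empty vector with 95% intervals, from the fit over 15 libraries (black circles) and from the fit without guide 2 replicate 2 (orange squares); filled symbols passed an adjusted p of 0.05. For guide 2, LAMA3 moves from -2.12 to -4.91 and ITGB6 from -3.50 to -6.73 when that library is left out.

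The mean of the 3 edited genotypes was also compared with the mean of the 2 unedited ones. None of the 9 genes passed, beside 1.51% of all tested genes, with 2762 genes at an unadjusted p under 0.05 in edgeR, and DESeq2 called 3 of the 9 beside 5.32%, and limma voom 6 beside 42%. The log2 differences were -2.85 for ITGB6, -2.05 for LAMA3, -0.87 for ITGA6 and -0.75 for ITGA2 (edgeR adjusted p = 0.0568, 0.113, 0.259 and 0.0732). Leaving out guide 2 replicate 2 gave -3.93, -2.97, -1.30 and -0.90 (edgeR adjusted p = 0.000169, 0.000169, 0.00126 and 0.00138), and ITGA3 passed as higher (0.24, adjusted p = 0.0173), so that 5 of the 9 passed beside 18% of all genes. Leaving out parental replicate 2 instead gave adjusted p-values of 0.0423 for ITGB6 and 0.0421 for ITGA2. In both settings some edited libraries overlapped the unedited range.

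The order of the genotype means put the empty vector first for ITGA2, ITGA6, ITGB4, ITGB6, LAMA3 and LAMB3, and guide 1 last for ITGA2, ITGA6, ITGB6 and LAMA3. The last place rests on guide 2 replicate 2 for 3 of these: without it the guide 2 means were 60.5 CPM for ITGA2, 1.13 CPM for ITGB6 and 38.9 CPM for LAMA3, below the guide 1 means of 65.8, 1.21 and 46.4 CPM. For ITGA6 guide 1 stayed last. For ITGA2, LAMB3 and ITGB6 the empty vector was followed by both guides, and for LAMA3 and ITGA6 by parental cells. Of the 36 steps between neighbours in these orders, the CPM ranges were separate in 5. These were the first step of ITGA2, ITGB6, LAMA3 and LAMB3, and the last step of ITGA6, from both guides to guide 1. Among all tested genes, 17.2% had every empty-vector library above every double-guide library. The share was 14.1% for the empty vector above parental cells and 15.3% for double-guide libraries above guide 1. Whether these steps were separate more often than those of other genes was not tested. Over the 36 steps the lowest edgeR adjusted p was 0.0616, for ITGA2. Per kilobase of exon, the highest mean level in empty-vector cells was that of LAMB3 (290.9 CPM per kilobase), followed by ITGB1 (235), ITGB4 (101), ITGA3 (97.3) and ITGA6 (96.0), and the lowest were ITGA2 (29.6) and ITGB6 (25.2).

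Over the 15 libraries, log2 CPM ranged over 7.54 units for ITGB6 and 5.79 for LAMA3, against a median of 1.01 over all tested genes. The range was 2.72 for ITGA6, slightly less for ITGA2, 2.01 for ITGA5, 1.93 for LAMB3, 1.22 for ITGB1, 1.18 for ITGB4 and 1.05 for ITGA3. Guide 2 replicate 2 lay above the mean of its replicates by 4.67 log2 units for ITGB6, 4.21 for LAMA3, 2.40 for ITGA6 and 1.02 for ITGA2. Parental replicate 2 lay on the low side of its replicates for the same 4 genes, with differences of -3.18, -2.41, -1.32 and -0.91. Empty-vector replicate 3 lay on the high side for them, by 1.22, 1.40, 1.02 and 0.69. ITGA3, ITGA5 and ITGB1 did not share the parental shift: parental replicate 2 was 0.24, 0.36 and 0.23 above its replicates. Empty-vector replicate 3 was 0.07, 0.008 and 0.36 above its replicates for these genes. LAMB3 was lower in parental replicate 2 (-0.53) and higher in empty-vector replicate 3 (0.56), without a rise in guide 2 replicate 2 (-0.23).

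As a description over these 15 libraries, which share genotypes and the outlying library, LAMA3 correlated with ITGB6 at Pearson r = 0.989 and with ITGA6 at 0.923, and ITGA5 with ITGA3 at 0.914. ITGA6 and ITGB4, which form 1 receptor, correlated at 0.04. Without guide 2 replicate 2, the correlation of ITGB1 with ITGA5 was 0.540 over 14 libraries, against 0.901 with it. Among 9529 genes of sufficient level, those most like LAMA3 were CDH3 (r = 0.988), which encodes P-cadherin, and TACC2 (0.983). S100A2 was among those most like ITGB6 (r = 0.967), and COBLL1 among those most like ITGA6 (0.986). ITGA2 was most like TMCC1 (0.975) and KLF7 (0.974), HRH1 was among those most like ITGA5 (0.982), and ITGA3 was most like PLA2G15 (0.982) and DAD1 (0.976). LAMB3 was most like PPP1R3B (0.958) and EFL1 (0.958), ITGB1 most like PDGFC (0.970) and APBB2 (0.955), and ITGB4 most like KIZ and PRDX5 (0.941 each). Without guide 2 replicate 2, the values of ITGB1 were 0.875 with PDGFC and 0.791 with APBB2. Those of the other most like genes named here were then 0.930 to 0.989.

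Markers of epithelial and basal cells moved in part with LAMA3, ITGB6 and ITGA6. Guide 2 replicate 2 had the highest summed level of both marker lists. Its ITGB6, at 29.9 CPM, still lay below every empty-vector library (82.7 to 189 CPM). The summed level of 10 epithelial genes, among them CDH1 (E-cadherin) and ST14 (the protease matriptase), was 184 to 369 CPM with the empty vector, 27.1 to 199 CPM in parental cells and 77.8 to 99.3 CPM with both guides. It was 23.5 to 23.8 CPM with guide 1, and with guide 2 it was 21.0 and 21.1 CPM in replicates 1 and 3 and 465 CPM in replicate 2. CDH1, a defining epithelial marker, had 1, 12 and 10 counts in the guide 1 libraries and 2 and 3 counts in guide 2 replicates 1 and 3, against 5042 counts in guide 2 replicate 2 and 114 in parental replicate 2. GRHL2 and OVOL1 were under 1 CPM in every library. Against the empty vector, 3 of the 9 epithelial genes tested were lower with guide 1, beside 4.57% of all tested genes, and none was higher. These were CDH1 and ST14, and RAB25, which is below the level required for naming and was picked out after its values were seen. The part of epithelial state in the adhesion gene results was not tested.

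The summed level of the basal markers KRT5, KRT14, KRT17 and TP63 was 2753 to 4072 CPM with the empty vector, 993 to 4259 CPM in parental cells, 655 to 1048 CPM with guide 1 and 1158 to 1352 CPM with both guides. Guide 2 replicate 2 stood at 7841 CPM, against 778 and 856 CPM in its replicates. KRT17, a basal keratin, was 29.7-fold lower with guide 1 than with the empty vector (edgeR adjusted p = 0.0346). The 10 mesenchymal genes summed to 1142 CPM in guide 2 replicate 2 and to 1933 to 2952 CPM in parental cells, 1970 to 2113 CPM with the empty vector and 2555 to 2626 CPM with guide 1. Among 6 fibroblast genes, PDGFRA and THY1 were under 1 CPM throughout. The sum was 489 to 1147 CPM with guide 1 against 195 to 212 CPM with the empty vector. Most of the guide 1 sum was DCN, at 965, 1095 and 432 CPM, against 127, 130 and 82.3 CPM with the empty vector. Of the 4 tested, DCN and LUM were higher with guide 1 and FAP was lower. LUM is below the level required for naming and was picked out after its values were seen. Of the 9 mesenchymal genes tested, COL1A1 was lower with guide 1 and none was higher. Among 5 endothelial genes, KDR was higher with guide 1 than with the empty vector, at 5.29 to 10.99 CPM against 1.72 to 2.71 CPM, while CDH5, VWF and TEK were under 1 CPM in every library. These genes summed to at most 13.3 CPM and leukocyte genes to at most 6.97 CPM, with CD3E and MS4A1 at 0 in all libraries. Proliferation genes summed to 1891 to 2346 CPM with the empty vector and 3282 to 3538 CPM in parental cells. Against the empty vector, 2 of 10 (CDK1 and TOP2A) were higher in parental cells and with guide 2. Over all tested genes, 4.37% and 3.94% passed there in either direction. The sum was 3053 to 3461 CPM with guide 2 and 2959 to 3159 CPM with both guides; with guide 1 it was 3409 CPM in replicate 3 and 1809 and 1811 CPM in the others. Of the 5 luminal genes tested, KRT18 was lower with guide 1 and none was higher. For guide 1 against the empty vector, 5.88% of all tested genes passed, 4.57% as lower. In bulk RNA, fewer cells of a type and less RNA per cell cannot be told apart, and the part of these lists in the adhesion gene results was not tested.

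**Figure D4:**
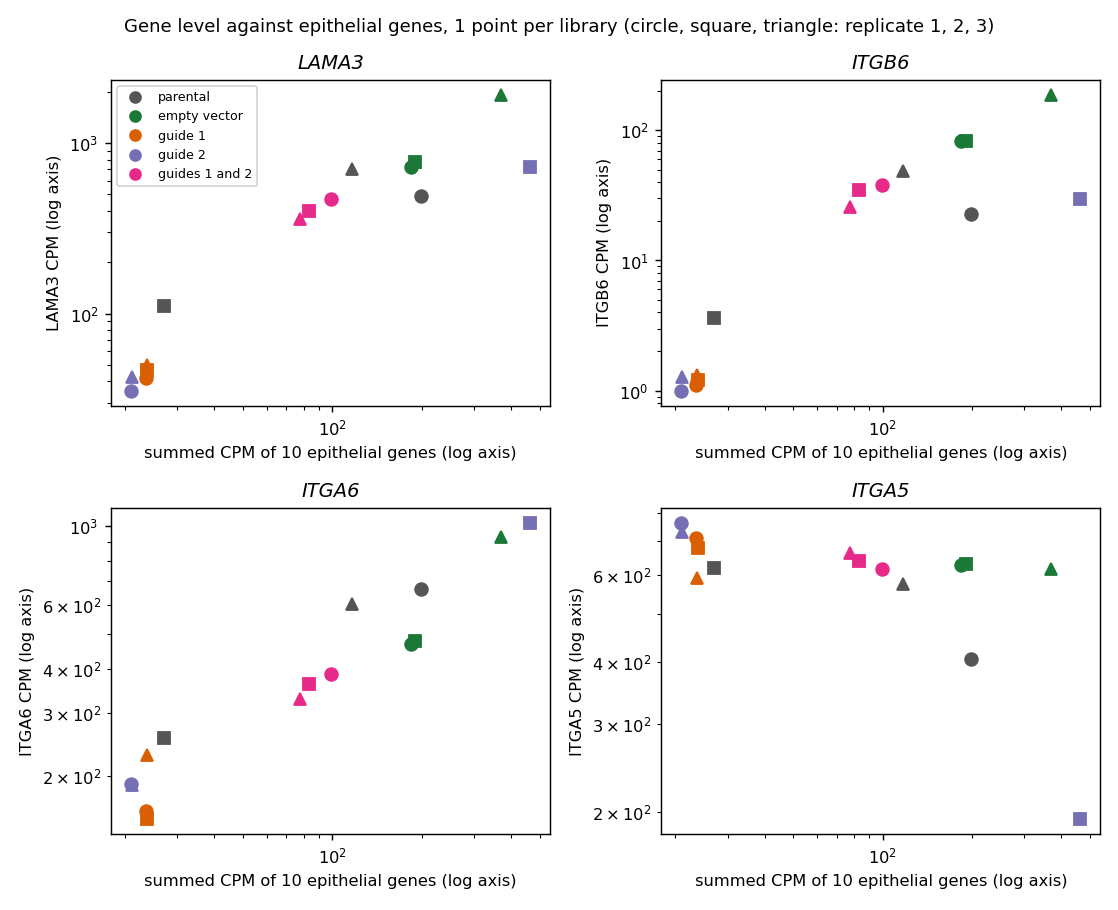
CPM of LAMA3, ITGB6, ITGA6 and ITGA5 against the summed CPM of 10 epithelial genes (both axes log), 1 point per library, coloured by genotype; circles, squares and triangles are replicates 1, 2 and 3. Guide 2 replicate 2, at 465 CPM of epithelial genes, sits with high LAMA3 and ITGA6 and has the lowest ITGA5, at 193 CPM. Its ITGB6, at 29.9 CPM, lies below every empty-vector library.

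Among the other integrin chains, 13 of 19 were tested. With guide 1 and with guide 2, 2 of the 13 were lower than in the empty vector and none was higher. Over all tested genes, 4.57% and 2.73% passed as lower. The 2 chains were ITGA1, a collagen-binding alpha chain, and ITGAV, the partner of ITGB6. ITGA1 was 34.3, 34.5 and 33.2 CPM with the empty vector and between 15.9 and 24.0 CPM in all 9 edited libraries. Its log2 fold change was -0.74 with guide 1, -0.87 with guide 2 and -0.71 with both guides (edgeR adjusted p = 0.011, 0.006 and 0.0316). ITGAV gave -0.64 and -0.80 with guide 1 and guide 2 (edgeR adjusted p = 0.04 and 0.0195), and it had no rise in guide 2 replicate 2, at 168 CPM against 209.7 and 229 CPM. In the fit lacking guide 2 replicate 2, 3 of 14 tested chains passed with guide 1 and 6 of 14 with guide 2. Over all genes tested in that fit, 18.1% and 14.5% passed. ITGA8 and ITGAD had no count in any library.

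Among the 9 other laminin chains tested, LAMA4 was higher with guide 1 and with guide 2 than with the empty vector. LAMA4, an alpha chain of the laminins of endothelial and mesenchymal basement membranes, was 2.75, 2.84 and 1.42 CPM with the empty vector, 11.9, 11.4 and 5.68 CPM with guide 1, and 16.2, 3.08 and 17.8 CPM with guide 2. It was 4.13-fold higher with guide 1 (log2 fold change 2.05, edgeR adjusted p = 0.0363) and 5.27-fold higher with guide 2 (2.40, adjusted p = 0.0243). In guide 2 replicate 2 and in all libraries with both guides, LAMA4 was at most 3.21 CPM. In the 5 libraries with the lowest LAMA3, at 35.2 to 50.3 CPM, LAMA4 was 5.68 to 17.8 CPM.

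Of 12 other matrix ligands tested, 3 were lower with guide 1 and 4 with guide 2 than with the empty vector, and none was higher. The share of all tested genes that passed as lower was 4.57% and 2.73%. TNC, which encodes the matrix glycoprotein tenascin-C, had log2 fold changes of -2.21 and -2.20 (edgeR adjusted p = 0.0191 and 0.0239), and COL4A1, a basement-membrane collagen chain, had -0.69 and -0.70 (adjusted p = 0.0234 and 0.0278). TGFBI, a secreted integrin-binding protein, had -0.84 with guide 2 (edgeR adjusted p = 0.0292). With guide 2 replicate 2 left out, 8 of the 12 passed with guide 1 (3 higher) and 6 with guide 2 (1 higher), beside 18.1% and 14.5% of all genes. SPP1, lower in both, is below the level required for naming and was picked out after its values were seen.

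Of 25 adaptors and kinases that act downstream of integrins, 3 were lower with guide 1 than with the empty vector, 1 with guide 2 and 2 in parental cells, and none was higher; over all tested genes 4.57%, 2.73% and 2.84% were lower. Without guide 2 replicate 2, 10, 7 and 8 of the 25 passed, 2 of them higher in each comparison, beside 18.1%, 14.5% and 13.9% of all genes. ZYX, which encodes the focal-adhesion protein zyxin, had log2 fold changes of -0.36, -0.37 and -0.35 in these 3 comparisons (edgeR adjusted p = 0.0294, 0.0309 and 0.041). BCAR1, the docking protein p130Cas, had -0.37 with guide 1 (edgeR adjusted p = 0.014) and -0.28 in parental cells (0.0475), and the kinase SRC had -0.83 with guide 1 (0.0355). PARVB, a parvin that joins ILK complexes, was lower with both guides than with guide 2 (log2 fold change -1.09, edgeR adjusted p = 0.0249) and than in parental cells (-1.06, adjusted p = 0.0125). The medians of the 25 genes were -0.05 with guide 1 and -0.09 with guide 2, beside 0.02 and 0.03 over all tested genes.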

How the data were processed

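Poly(A) RNA of 15 MCF-10A libraries was sequenced after RNeasy extraction and a KAPA mRNA HyperPrep preparation, per the labels' protocols. The authors deposited whole-number counts per Ensembl gene, and also deposited CPM, which equal the counts divided by the library total to within 4.91e-11. Trim Galore 0.6.0, STAR 2.7.8a and GRCh38 are named in the submitters' processing notes. The counting program, its annotation and its use of strand are not given in the sources used here. Libraries were grouped by their labels, and columns were matched by name.

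Counts were tested with edgeR 4.0.16 in R 4.3.3 (filterByExpr by genotype, trimmed mean of M-values (TMM) scaling, 1 quasi-likelihood model over 15 libraries, two-sided). This left 17457 genes and 10 residual degrees of freedom. In each of 11 comparisons, Benjamini-Hochberg adjustment ran over every gene tested, with a threshold of 0.05. A standard error was taken as |log2 fold change| over the root of the F statistic. Log2 CPM used a prior count of 2. Gene positions and exon lengths are from GENCODE v29, which holds 58503 of the 60721 identifiers. Promoter windows and motif matches were computed from RefSeq. The procedure was tested on simulated data. Intervals and floors cover the spread between libraries or counting error only; the reads carry no molecular identifiers.

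The genes and lists were chosen with earlier results of these data known. Named genes are NF1, the 9 members, up to 4 genes of each of 13 other lists (those that passed in at least 1 comparison at a mean log2 CPM of at least 1, with the largest change), and for each member the 2 other genes with the highest Pearson r at a mean log2 CPM of at least 3. A few genes that this rule names are not reported here. Alternatives were edgeR's RLE size factors for scaling, no filter, a replicate block, DESeq2 1.42.0, only the compared groups, voom with sample quality weights (limma 3.58.1), and leaving out each library.

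The labels number replicates 1 to 3 in each genotype without saying what a number shares. Correlations of deviations from genotype means over 30 same-numbered pairs averaged -0.05 (-0.75 to 0.28). Only empty vector with guide 1 had every pair over 0.1 (0.136 to 0.28), so the numbers may pair these 2 genotypes alone. The main fit did not use the numbers, and the replicate block used them across all genotypes. No fit paired only these 2 genotypes. Replicate libraries differed beyond sampling noise in 24.6% to 76.8% of genes, so none was counted as a duplicate.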

Additional observations from a re-analysis of the deposited data

Results flagged for a closer look

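Each gene was checked for a library far from the others within the 9 edited and the 6 unedited libraries, 18 groups in all. The rule flags about 1 in 20 groups by chance only where each group is 1 uniform sample. These groups pool genotypes and the genes share libraries, so that rate is no reference for the count here. A gap between the outermost library and its neighbour too large for the group's range was found in 6. Guide 2 replicate 2 was that library in 4 of them: it was the lowest edited library for ITGA3 (508.4 CPM), ITGA5 (193 CPM) and ITGB1 (726.8 CPM), and the highest for ITGA6 (1019.6 CPM). Among unedited libraries, ITGA5 was lowest in parental replicate 1 (405.3 CPM) and LAMA3 was highest in empty-vector replicate 3 (1924.5 CPM).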

How the results depend on the processing

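No printed fold change reversed its direction under any alternative. The number of the 9 adhesion genes past the threshold changed as follows. Voom with sample quality weights gave 5 in parental cells, 6 with guide 2 and 5 with both guides against the empty vector, 7, 6 and 3 with guide 1, guide 2 and both guides against parental cells, 1 for guide 1 against guide 2, 5 and 4 for both guides against guide 1 and guide 2, and 6 for edited against unedited. Fits of only the compared groups gave 4 in parental cells, 0 with guide 2 and 6 with both guides against the empty vector, and 4 for both guides against guide 1. DESeq2 gave 2 with both guides against the empty vector, 2 with guide 1 against parental cells, 2 for both guides against guide 1 and 3 for edited against unedited. Without a filter the counts were 1 with both guides against the empty vector, 1 for both guides against guide 1 and 3 for edited against unedited. The cause was not tested.

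The counts over all genes, in the order parental, guide 1, guide 2 and both guides against the empty vector, were 762, 1026, 687 and 168. The replicate block gave 400, 567, 375 and 69, DESeq2 1626, 1937, 1373 and 754, and voom 6343, 7424, 5804 and 4666. The compared groups alone gave 2608 with guide 1, 13 with guide 2 and 3054 with both guides. Against parental cells, guide 1, guide 2 and both guides gave 26, 9 and 34; without a filter these were 84, 17 and 60, with DESeq2 657, 137 and 367, with voom 9230, 5682 and 3725, and in the compared groups alone 44, 1 and 147. The replicate block gave 9 with guide 1 and 22 with both guides there. Guide 1 against guide 2 gave 7, and 23 without a filter, 204 with DESeq2, 3524 with voom and 0 in the compared groups alone. Both guides against guide 1 and against guide 2 gave 48 and 26; the alternatives were 82 and 51 without a filter, 20 and 2 with the replicate block, 383 and 150 with DESeq2, 8113 and 2650 with voom, and 1252 and 2 in the compared groups alone. Edited against unedited gave 263, and 111 with the replicate block, 928 with DESeq2 and 7328 with voom.

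Leaving out 1 library at a time moved the count of adhesion genes past the threshold to between 1 and 4 for parental cells, 1 and 5 for guide 1, 0 and 5 for guide 2 and 0 and 2 for both guides against the empty vector. It was 0 to 4, 0 to 5 and 0 to 1 for guide 1, guide 2 and both guides against parental cells, 0 to 1 for guide 1 against guide 2, 0 to 2 for both guides against either guide, and 0 to 5 for edited against unedited. Over all genes the ranges were 145 to 2484, 215 to 3236, 170 to 2581 and 21 to 1196 against the empty vector, and 6 to 2591, 2 to 1064 and 4 to 467 against parental cells. They were 2 to 593 for guide 1 against guide 2, 4 to 827 and 2 to 327 for both guides against guide 1 and guide 2, and 59 to 3213 for edited against unedited. The replicate block left 3 of the 9 genes past the threshold for guide 1, where LAMA3 was lost (edgeR adjusted p = 0.057). It left 2 each for guide 2 and parental cells, as without the block.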
